A study of Mus musculus with 16 samples.

Results

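Described here are 10 antioxidant response genes under the transcription factor NRF2 and its inhibitor KEAP1: Nfe2l2, Keap1, Gclc, Gclm, Slc7a11, Txnrd1, Srxn1, Hmox1, Nqo1 and Gpx4. They were taken by name from the 47311 genes with a transcript in the deposited tables, and all 10 were among the 16154 genes that passed the filter on low counts. Bulk RNA came from 16 mammary tumours of female C57BL/6J mice that ate a high-fat diet, with 60% of kcal as fat, between 8 and 26 weeks of age. Each tumour grew from 250000 E0771-luciferase cells, a single mouse mammary cancer line with a luciferase reporter, placed in mammary gland number 4. Starting 3 days later, 8 mice received 200 ug of an antibody against PD-1, an inhibitory receptor of T cells, and 8 mice received 200 ug of an IgG2a isotype control, every 3 days up to day 21. All mice of both groups carried the same diet and the same cell line, and each tumour has its own animal number in the labels.

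NRF2, encoded by Nfe2l2, is a transcription factor that is continuously made and destroyed in resting cells, because KEAP1 hands it to a CUL3 ubiquitin ligase. Oxidants and electrophiles modify cysteines of KEAP1, NRF2 then accumulates, pairs with a small MAF protein and binds antioxidant response elements in its target genes. The targets make glutathione, recycle thioredoxins and peroxiredoxins, break down haem and reduce quinones. Because NRF2 is regulated largely as a protein, its mRNA is a poor guide to its activity, and in a tumour the targets are made by cancer cells, macrophages and other host cells alike.

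The tables held 59602128 to 76071424 estimated reads per tumour under anti-PD-1 and 59036535 to 82591064 under IgG2a. The 13 tumours in the alternative values below are those left after removing 3 that stood apart from the rest. In anti-PD-1 replicate 6, 38993 transcripts had a read, against 47997 to 55476 in the other 15 tumours. IgG2a replicate 3 had a skeletal muscle score, the mean log2 CPM of the marker list, 11.65 above the median of the 16 tumours, and IgG2a replicate 7 had an adipocyte score 7.19 and an erythroid score 7.96 above it. The epithelial score was low, with all 8 markers tested. It lay between -1.04 and 3.33 under anti-PD-1 and between -0.92 and 5.63 under IgG2a. Its highest value was that of IgG2a replicate 7, which had the lowest cell cycle score, 5.52. Whether the epithelial score follows cancer cell content was not tested. The macrophage score lay between 5.03 and 6.22 under anti-PD-1 and between 4.55 and 8.10 under IgG2a. Scores rest on different marker genes, so their levels do not compare the content of different cell types. In bulk tissue, fewer cells of a type and less RNA per cell cannot be told apart.

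The 10 genes spanned a wide range of mRNA abundance. Levels between genes are given per length, as the TPM of protein-coding transcripts, with the mean ± SD over 16 tumours. Gpx4 stood first at 403 ± 103 TPM, followed by Hmox1 at 239 ± 166 TPM. The next were Txnrd1 at 83.3 ± 20.5 TPM, Nfe2l2 at 67.1 ± 10.2 TPM and Srxn1 at 55.8 ± 15.7 TPM. Gclm had 46.6 ± 29.1 TPM, Keap1 24.9 ± 4.54 TPM and Gclc 19.5 ± 4.65 TPM. Nqo1 was low at 5.76 ± 1.39 TPM and Slc7a11 lowest at 1.56 ± 1.24 TPM. Most neighbours in this order were separated within single tumours, with Gpx4 above Hmox1 in 13 of 16, Hmox1 above Txnrd1 in 15 of 16 and Keap1 above Gclc in 15 of 16. Srxn1 and Gclm were the closest neighbours by this measure, with Srxn1 above Gclm in 11 of 16 tumours. The place of Gclm is uncertain, since short transcripts carried much of its TPM, also among those classed as coding. A coding transcript of 292 bases held between 0 and 42.6% of Gclm TPM in single tumours. The coding transcript of 5589 bases held 5.05% on average. Transcripts not classed as coding, left out of this order, held 42.7% of Gclm TPM and 23.6% of its reads. For Gpx4 the same shares were 65.3% of TPM and 11.02% of reads, so TPM over all transcripts would place it higher still.

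The genes also differed in how much they varied from tumour to tumour, measured as the coefficient of variation of CPM (TMM-scaled and depth-normalised counts) over all 16. Nfe2l2 was nearly constant, at 8.68%, with 1.83% of the genes tested below it. Keap1 followed at 13.7%, Gclc at 16.2%, Txnrd1 at 18.0%, Srxn1 at 21.6% and Gclm at 23.1%. Nqo1 stood at 27.5% and Gpx4 at 46.9%. The widest spreads were those of Hmox1 at 65.6% and Slc7a11 at 84.7%, above 78.4% and 84.7% of the genes tested.

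**Figure D1:**
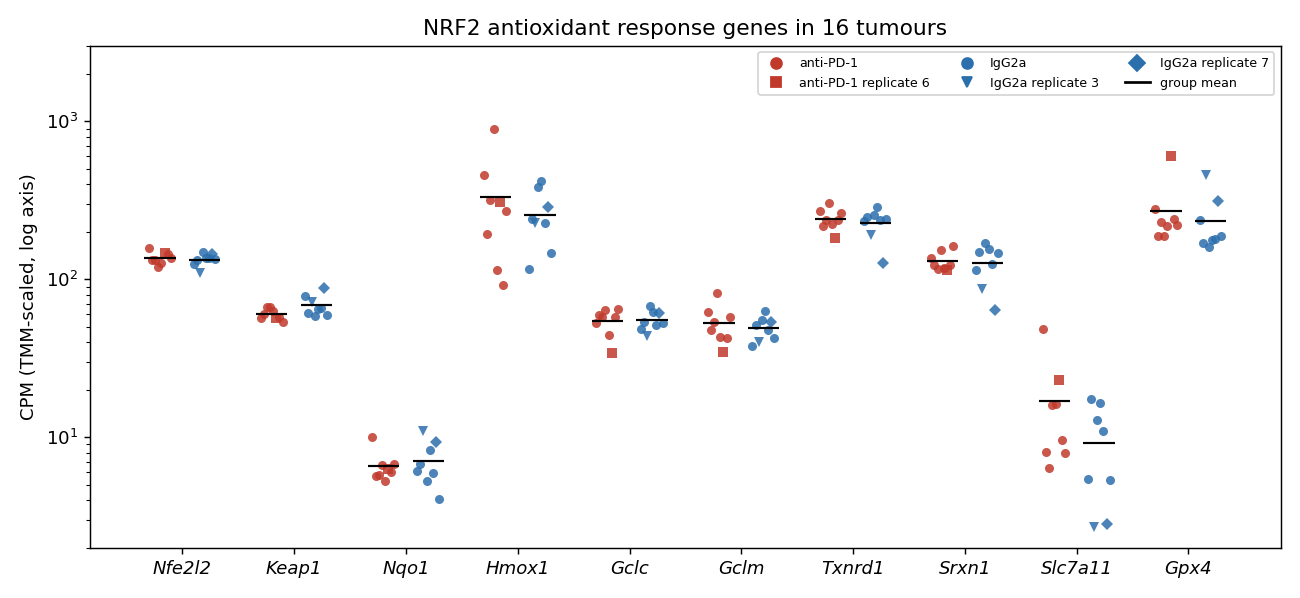
CPM (TMM-scaled, log axis) of the 10 genes in each tumour, anti-PD-1 in red to the left of IgG2a in blue, with a bar at each group mean and separate symbols for the 3 tumours that stood apart. The groups overlap for every gene. Within the anti-PD-1 group single points stand far above the other 7 for Slc7a11 and Nqo1 (replicate 1), Hmox1 (replicate 4) and Gpx4 (replicate 6), and for Nqo1 the highest point of all is IgG2a replicate 3.

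Nfe2l2 (ENSMUSG00000015839, chromosome 2, 75675513 to 75704641, minus strand, GRCm38) had CPM with a lowest value of 120.3, a median of 134.1 and a highest of 157.8 under anti-PD-1, against 109.4, 134.7 and 149.3 under IgG2a. Anti-PD-1 replicate 1 was the highest tumour, and otherwise the groups overlapped throughout. The log2 fold change, anti-PD-1 over IgG2a, was 0.04 ± 0.08 (SE, 95% interval -0.12 to 0.20, edgeR quasi-likelihood adjusted p = 0.810). Keap1 (ENSMUSG00000003308, chromosome 9, 21229730 to 21239361, minus strand), the adaptor that holds NRF2 down, had a lowest, median and highest CPM of 53.73, 59.08 and 66.62 under anti-PD-1, against 58.73, 65.64 and 88.09 under IgG2a. In 4 of 8 anti-PD-1 tumours Keap1 lay below the lowest IgG2a tumour, while the highest IgG2a value came from replicate 7, the tumour with the high adipocyte score. Its log2 fold change was -0.19 ± 0.09 (SE, 95% interval -0.38 to 0.0069, edgeR adjusted p = 0.434). It was -0.13 without IgG2a replicate 7 and -0.10 in 13 tumours.

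Gclc and Gclm encode the catalytic and the modifier subunit of glutamate-cysteine ligase, the rate-limiting enzyme of glutathione synthesis. Gclc (ENSMUSG00000032350, chromosome 9, 77754535 to 77794485, plus strand) had a lowest, median and highest CPM of 34.35, 57.71 and 64.85 under anti-PD-1, against 43.44, 53.25 and 67.46 under IgG2a. The low values were those of anti-PD-1 replicate 6 and IgG2a replicate 3, and the groups overlapped. The log2 fold change of Gclc was -0.02 ± 0.13 (SE, 95% interval -0.29 to 0.25, edgeR adjusted p = 0.956). Gclm (ENSMUSG00000028124, chromosome 3, 122245557 to 122270732, plus strand) had a lowest, median and highest CPM of 34.80, 50.46 and 81.53 under anti-PD-1, against 37.88, 49.29 and 62.64 under IgG2a. Both extremes were anti-PD-1 tumours, replicate 6 the lowest and replicate 4 the highest. Anti-PD-1 over IgG2a, Gclm had a log2 fold change of 0.11 ± 0.16 (SE, 95% interval -0.22 to 0.45, edgeR adjusted p = 0.739).

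Slc7a11 (ENSMUSG00000027737, chromosome 3, 49892526 to 50443614, minus strand) encodes the transport subunit of the cystine-glutamate exchanger, which brings in cystine for glutathione. Its CPM had a lowest value of 6.35, a median of 12.8 and a highest of 48.5 under anti-PD-1, against 2.71, 8.18 and 17.45 under IgG2a. Anti-PD-1 replicate 1 stood far above the other tumours, and the 2 lowest values, 2.71 and 2.82, were those of IgG2a replicates 3 and 7. Anti-PD-1 replicate 6, at 23.02 CPM, also lay above the highest IgG2a tumour. The other 6 anti-PD-1 tumours lay within the IgG2a range, and 5 of 8 were above the IgG2a median. Slc7a11 had the largest estimate of the 10 genes, a log2 fold change of 0.87 ± 0.48 (SE, 95% interval -0.15 to 1.90, edgeR adjusted p = 0.442). Without anti-PD-1 replicate 1 the estimate was 0.43, and in 13 tumours it was 0.50.

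Txnrd1 encodes the cytosolic thioredoxin reductase, a selenoprotein, and Srxn1 encodes sulfiredoxin, which restores over-oxidised peroxiredoxins. Txnrd1 (ENSMUSG00000020250, chromosome 10, 82833951 to 82897712, plus strand) had a lowest, median and highest CPM of 181.6, 236.9 and 303.0 under anti-PD-1, against 126.8, 238.7 and 286.6 under IgG2a. Its lowest tumours were anti-PD-1 replicate 6 and IgG2a replicates 7 and 3, the 3 that stood apart. For Txnrd1 the estimate was 0.09 ± 0.14 (SE, 95% interval -0.21 to 0.39, edgeR adjusted p = 0.769). Srxn1 (ENSMUSG00000032802, chromosome 2, 152105516 to 152111376, plus strand) had a lowest, median and highest CPM of 115.3, 122.3 and 161.5 under anti-PD-1, against 63.67, 135.3 and 170.2 under IgG2a. IgG2a held both extremes, replicate 7 the lowest and replicate 4 the highest. For Srxn1 the estimate was 0.05 ± 0.17 (SE, 95% interval -0.31 to 0.41, edgeR adjusted p = 0.897), and it was -0.12 in 13 tumours.

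Hmox1 (ENSMUSG00000005413, chromosome 8, 75093621 to 75100589, plus strand) encodes haem oxygenase 1, which splits haem into biliverdin, iron and carbon monoxide and is also repressed by BACH1 until haem is present. Its CPM had a lowest value of 91.72, a median of 289.4 and a highest of 890.1 under anti-PD-1, against 116.5, 234.6 and 421.6 under IgG2a. The values of the anti-PD-1 tumours lay on both sides of the IgG2a range, with replicate 4 highest and replicate 7 lowest. The log2 fold change of Hmox1 was 0.37 ± 0.40 (SE, 95% interval -0.48 to 1.21, edgeR adjusted p = 0.658). It was -0.03 without anti-PD-1 replicate 4. Nqo1 (ENSMUSG00000003849, chromosome 8, 107388225 to 107403206, minus strand), a quinone reductase often used as a readout of NRF2, had a lowest, median and highest CPM of 5.28, 6.19 and 10.1 under anti-PD-1, against 4.09, 6.44 and 10.96 under IgG2a. The highest values were those of anti-PD-1 replicate 1 and IgG2a replicate 3. Nqo1 had a log2 fold change of -0.11 ± 0.20 (SE, 95% interval -0.54 to 0.32, edgeR adjusted p = 0.805), and it was 0.12 in 13 tumours.

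Gpx4 (ENSMUSG00000075706, chromosome 10, 80047166 to 80056439, plus strand) encodes the selenoprotein that reduces lipid hydroperoxides in membranes and so holds back ferroptosis. Its CPM had a lowest value of 187.9, a median of 226.3 and a highest of 603.6 under anti-PD-1, against 159.3, 183.9 and 455.7 under IgG2a. The highest tumours were anti-PD-1 replicate 6 and IgG2a replicates 3 and 7, and all 8 anti-PD-1 tumours lay above the IgG2a median. The log2 fold change of Gpx4 was 0.21 ± 0.27 (SE, 95% interval -0.37 to 0.78, edgeR adjusted p = 0.713). It was -0.07 without anti-PD-1 replicate 6 and 0.27 ± 0.11 in 13 tumours (SE, edgeR adjusted p = 0.277).

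No gene of the 10 passed the edgeR test at an adjusted p under 0.05, against 0% of the 16154 genes tested, where the smallest adjusted p was 0.434. At an unadjusted p under 0.05 the count was 0 of 10, against 11.4% of all genes tested. Counts of tumours above or below values of the other group, as for Keap1 and Gpx4, were not set against all genes. Of the estimates, 7 were higher and 3 lower under anti-PD-1, with a median of 0.07, against 6962 higher and 9192 lower and a median of -0.05 over all genes tested. In 13 tumours 6 of 10 were higher and 4 lower, with a median of 0.07, against 8712 higher and 7640 lower and a median of 0.02 over all 16352 genes tested there, and Gpx4 was the 1 gene at an unadjusted p under 0.05, 1 of 10 against 15.8% of all genes. Over the other tools and settings tried, 0 of the 10 genes passed at an adjusted p under 0.05. The widest of the 10 intervals were those of Slc7a11 and Hmox1, and the narrowest was that of Nfe2l2.

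**Figure D2:**
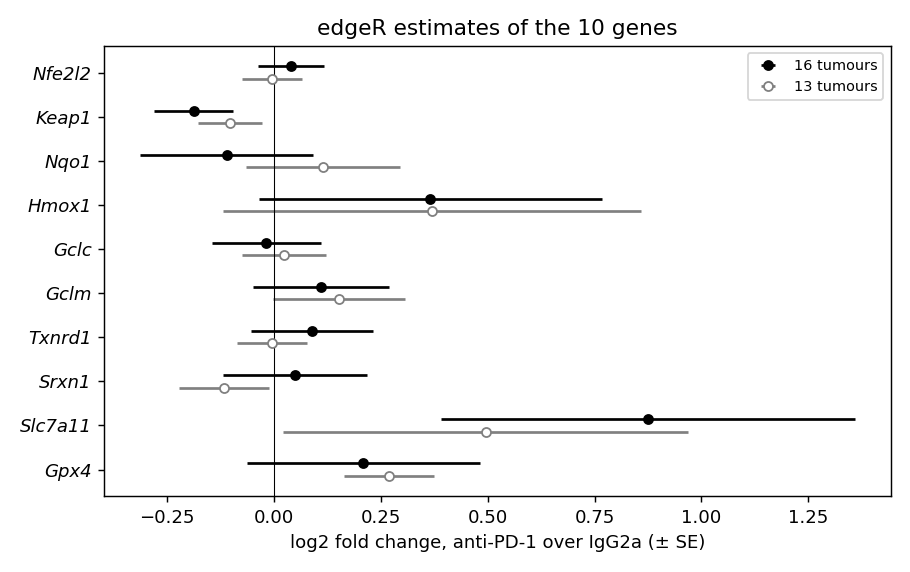
edgeR log2 fold changes, anti-PD-1 over IgG2a, with SE bars for the 10 genes in all 16 tumours (filled) and in the 13 left after removing the tumours that stood apart (open). The estimates run from -0.19 for Keap1 to 0.87 for Slc7a11 in 16 tumours, and the bars of Slc7a11 and Hmox1 are the widest in both sets.

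Several of the genes were correlated with each other from tumour to tumour. Among 45 pairs, over log2 CPM in 16 tumours, 5 had a Pearson r with an adjusted permutation p under 0.05, 3 of them positive. All 3 positive pairs also passed by Spearman's rho, which called 5 pairs, the other 2 being Gclm with Txnrd1 (rho = 0.72, permutation adjusted p = 0.0204) and Srxn1 with Gpx4 (rho = -0.74, permutation adjusted p = 0.0186). The positive pairs called by both measures joined the thioredoxin reductase to sulfiredoxin, haem oxygenase to the glutathione synthesis modifier, and the subunits of glutamate-cysteine ligase to each other. Over all 45 pairs 25 were positive and 20 negative, with a median r of 0.12. Counts of called or positive pairs and the median r, here and below, were not set against pairs of all genes. A high rho alone was not rare, since Gclm, at rho = 0.64, ranked 1395th among 16153 genes for Srxn1. Permutation p-values are two-sided, from 100000 resamples, adjusted over the 45 pairs.

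Txnrd1 and Srxn1 had r = 0.90 (permutation p = 2e-05, adjusted p = 9e-04) and rho = 0.89 (permutation p = 1e-05, the smallest the resamples can give, adjusted p = 4.5e-04). Without the 2 tumours farthest from the median of Txnrd1, r was 0.82. It was 0.80 within anti-PD-1 and 0.94 within IgG2a, and 0.78 or more with any 1 tumour left out, lowest without IgG2a replicate 7. In 13 tumours r was 0.71 (permutation adjusted p = 0.0612) and rho 0.82 (permutation adjusted p = 0.0195), so there the call rested on the ranks. Srxn1 ranked 3rd among 16153 genes for its rho with Txnrd1, and Txnrd1 ranked 17th for Srxn1.

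Hmox1 and Gclm had r = 0.78 (permutation p = 4.5e-04, adjusted p = 0.0101) and rho = 0.75 (permutation p = 0.00118, adjusted p = 0.0177). Anti-PD-1 replicate 4 was the highest tumour for both genes, and anti-PD-1 replicate 6 had the lowest Gclm with a Hmox1 value near the middle. Without the 2 tumours farthest from the median of Hmox1, r was 0.67, and without replicate 4 alone it was 0.66 and no longer passed. Within anti-PD-1 r was 0.73 and within IgG2a 0.90. In 13 tumours r was 0.96 and rho 0.95, both with a permutation p of 1e-05, the smallest the resamples can give, and an adjusted p of 4.5e-04. It was the 1 pair called by Pearson r in both sets of tumours. Gclm ranked 16th among 16153 genes for its rho with Hmox1 over 16 tumours and 1st over 13.

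Gclc and Gclm had r = 0.74 (permutation p = 9.7e-04, adjusted p = 0.0146) and rho = 0.78 (permutation p = 6.1e-04, adjusted p = 0.0137). The r was 0.63 without the 2 tumours farthest from the median of Gclc, 0.72 within anti-PD-1 and 0.85 within IgG2a, and the pair passed with any 1 tumour left out. In 13 tumours r was 0.63 and did not pass (permutation adjusted p = 0.120). Gclm ranked 16th among 16153 genes for its rho with Gclc over 16 tumours and 547th over 13. Gclc ranked 10th for Gclm over 16 tumours and 352nd over 13. Hmox1, correlated with Gclm, had r = 0.32 with Gclc (permutation adjusted p = 0.427). The labels give no grouping of the tumours beside treatment, and whether ranges of animal numbers mark batches is not given. A split of the animal numbers at 6100 was set here. Within the 10 animals numbered above 6100 and the 6 others, r was 0.93 and 0.87 for Txnrd1 with Srxn1, 0.75 and 0.89 for Hmox1 with Gclm, and 0.78 and 0.59 for Gclc with Gclm.

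The 2 negative pairs called by Pearson r were no longer called when single tumours were left out. Keap1 and Srxn1 had r = -0.74 (permutation p = 0.003, adjusted p = 0.0289) but rho = -0.50 (permutation p = 0.0523, adjusted p = 0.196), and r was -0.47 without the 2 tumours farthest from the median of Keap1. Within anti-PD-1 r was -0.24 and within IgG2a -0.89, and the pair did not pass without IgG2a replicate 3 or without IgG2a replicate 7. Gclc and Gpx4 had r = -0.72 (permutation p = 0.00321, adjusted p = 0.0289) and rho = -0.48 (permutation p = 0.0621, adjusted p = 0.200). Without the 2 tumours farthest from the median of Gclc, anti-PD-1 replicate 6 and IgG2a replicate 3, r was -0.17. The pair did not pass without anti-PD-1 replicate 4 or 6 or without IgG2a replicate 3 or 4. Within anti-PD-1 r was -0.85 and within IgG2a -0.57. Srxn1 and Gpx4, the negative pair called by rho, had r = -0.60 (permutation adjusted p = 0.112). It was -0.52 without the 2 tumours farthest from the median of Srxn1, -0.51 in 13 tumours, -0.38 within anti-PD-1 and -0.84 within IgG2a. Among 16153 genes, counted down from the highest rho, Srxn1 ranked 14347th for Gpx4 and Gpx4 15864th for Srxn1. Gclc ranked 12295th for Gpx4 and Gpx4 14126th for Gclc. Srxn1 ranked 15739th for Keap1 and Keap1 13888th for Srxn1. Many genes thus had a lower rho than these.

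**Figure D3:**
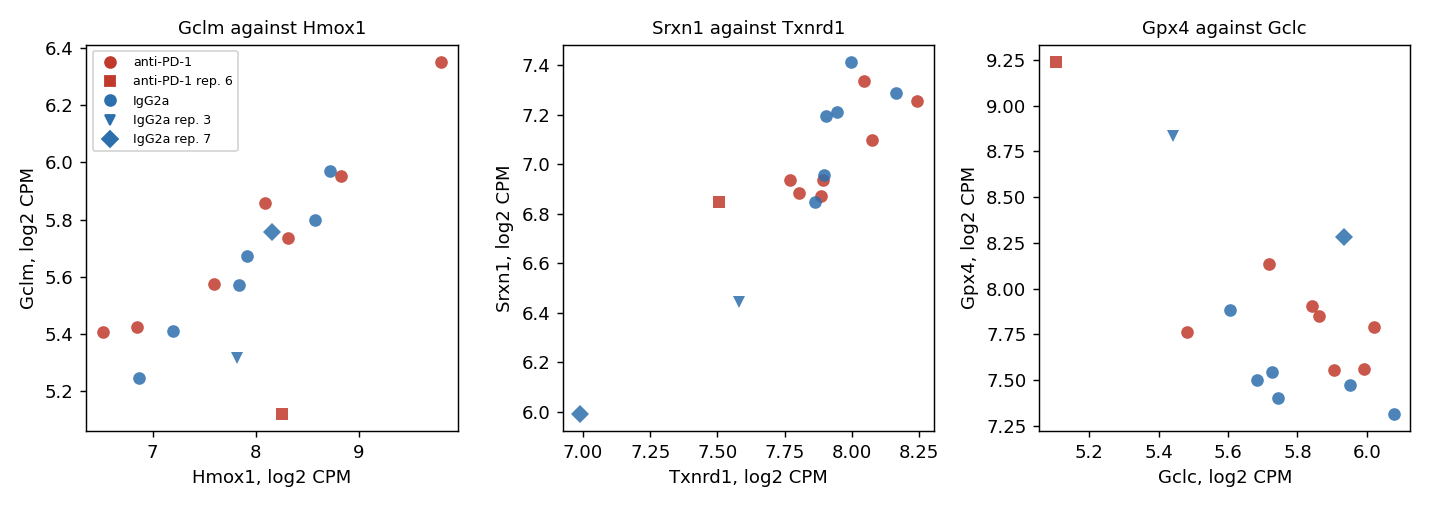
log2 CPM of Gclm against Hmox1, Srxn1 against Txnrd1 and Gpx4 against Gclc, 1 point per tumour, anti-PD-1 in red and IgG2a in blue, with separate symbols for the 3 tumours that stood apart. The Gclm panel (r = 0.78) follows a line that anti-PD-1 replicate 6 leaves, the Srxn1 panel (r = 0.90) reaches down to IgG2a replicate 7, and the Gpx4 panel (r = -0.72) is drawn out by anti-PD-1 replicate 6 and IgG2a replicate 3.

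With the 3 tumours that stood apart removed, the pairs called by Pearson r were 3, all positive, and all among Hmox1, Gclm and Txnrd1. By rho these 3 were called too, along with Txnrd1 and Srxn1 (given above) and the negative pair of Nfe2l2 and Keap1. Gclm and Txnrd1 had r = 0.88 in 13 tumours (permutation adjusted p = 0.00158), against 0.48 in 16 (permutation adjusted p = 0.195). Hmox1 and Txnrd1 had r = 0.83 in 13 tumours (permutation adjusted p = 0.0063), against 0.27 in 16 (permutation adjusted p = 0.539). The positive pairs numbered 30 of 45 and the median r was 0.22, and 11 pairs changed sign between the sets. The count of called pairs was 12 without IgG2a replicate 7 alone, and 3 without anti-PD-1 replicate 4 or without IgG2a replicate 3. Within the 8 anti-PD-1 tumours 0 pairs passed after adjustment, and within the 8 IgG2a tumours 8 did. The IgG2a group held replicates 3 and 7, which stood apart, and the anti-PD-1 group held replicate 6. Within-group values, here and elsewhere, include these tumours, and differences between the groups in r were not tested.

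Nfe2l2 itself took part in no called pair over 16 tumours. Its largest r was with Slc7a11, at 0.51 (permutation p = 0.0447, adjusted p = 0.168), which became 0.68 and was called without IgG2a replicate 7. Its r with Srxn1 was 0.18, with Gclc 0.17, with Gclm 0.12 and with Hmox1 0.11. With Txnrd1 it was -0.03, with Gpx4 -0.04 and with Nqo1 -0.06. The pair of Nfe2l2 and Gclc differed between groups of tumours, with r = -0.35 within anti-PD-1 and 0.92 within IgG2a, a difference that was not tested. With Keap1 Nfe2l2 had r = -0.39 (permutation adjusted p = 0.358; -0.71 and called without IgG2a replicate 7) and rho = -0.63 (permutation adjusted p = 0.0563). In 13 tumours rho was -0.76 (permutation adjusted p = 0.0323) and r -0.63 (permutation adjusted p = 0.120). Nqo1 moved with none of the others at the threshold over 16 tumours either, and its r with Slc7a11 was -0.02 in 16 tumours and 0.74 in 13 (permutation adjusted p = 0.0612). With Gpx4 Nqo1 had r = 0.47 (permutation adjusted p = 0.195), which became 0.69 and was called without anti-PD-1 replicate 6.

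**Figure D4:**
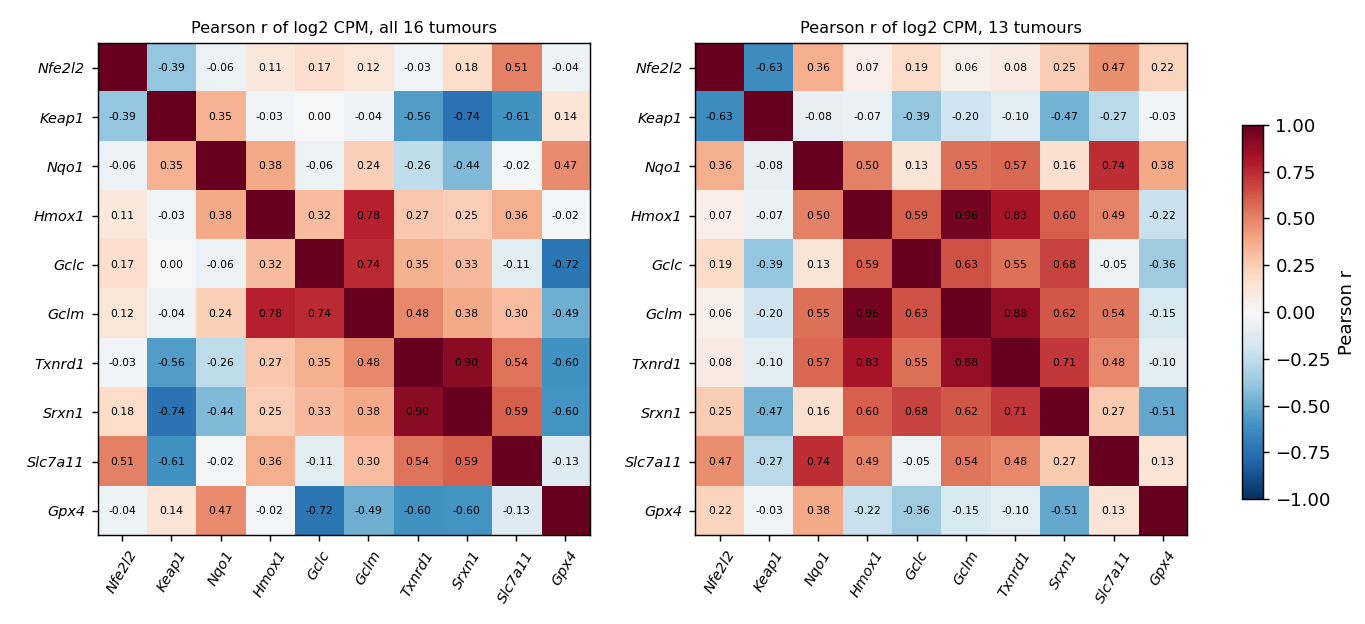
Pearson r of log2 CPM for the 45 pairs of the 10 genes, in 16 tumours on the left and 13 on the right, red for positive and blue for negative. The block of Hmox1, Gclc, Gclm, Txnrd1 and Srxn1 is red in both panels, reaching 0.96 for Hmox1 and Gclm on the right, while the blue of Gpx4 with Gclc (-0.72 on the left) pales on the right.

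The promoter sequences of the correlated genes were read from RefSeq (GRCm38.p6) and searched on both strands for TGACNNNGC, the core of an antioxidant response element. The windows ran from 250 bases before to 50 bases after a start site. Of the 10 genes, 8 had a window, with 13 windows in all, and Hmox1 and Gclc had none. A match stood in the windows of 4 of these 8 genes, Nfe2l2, Gclm, Txnrd1 and Srxn1, and in 4 of 13 windows, against 12.4% of all 32851 windows. The matches are shown in capitals with 10 bases to each side, in the gene's direction to show the letters of the element in Gclm, Txnrd1 and Srxn1, which took part in called pairs, and in Nfe2l2, which did not. A match describes letters and is no evidence of binding, and a window without a match says nothing of the rest of the gene.

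Nfe2l2, chr2:75704885-75704913, minus strand: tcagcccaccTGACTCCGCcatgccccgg
Gclm, chr3:122245413-122245441, plus strand: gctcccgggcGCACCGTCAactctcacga
Txnrd1, chr10:82859104-82859132, plus strand: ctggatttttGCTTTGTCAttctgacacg
Srxn1, chr2:152105542-152105570, plus strand: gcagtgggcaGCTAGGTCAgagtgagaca

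The first reads TGACNNNGC in the direction of the gene and the other 3 on the opposite strand. Their first base lay at position -240 from the start for Nfe2l2, -134 for Gclm, -92 for Txnrd1 and 29 for Srxn1. The start site used for Txnrd1 lies inside the gene span given above. The Srxn1 promoter also held TGAGTCA, the AP-1 heptamer that many antioxidant response elements contain, at positions -102 and -45. This motif was added after the sequences had been read. It was in 1 of 13 windows, against 5.20% of all windows. The 250 bases before the start are printed for the pair of highest r over 16 tumours, Srxn1 with TGAGTCA in capitals and Txnrd1 with the TGACNNNGC match in capitals.

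Srxn1, chr2:152105274-152105523, plus strand: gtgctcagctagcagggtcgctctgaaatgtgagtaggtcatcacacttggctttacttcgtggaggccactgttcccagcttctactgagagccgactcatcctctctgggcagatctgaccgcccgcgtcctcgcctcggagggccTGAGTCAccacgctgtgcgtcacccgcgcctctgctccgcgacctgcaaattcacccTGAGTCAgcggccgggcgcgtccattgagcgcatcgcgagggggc
Txnrd1, chr10:82858956-82859205, plus strand: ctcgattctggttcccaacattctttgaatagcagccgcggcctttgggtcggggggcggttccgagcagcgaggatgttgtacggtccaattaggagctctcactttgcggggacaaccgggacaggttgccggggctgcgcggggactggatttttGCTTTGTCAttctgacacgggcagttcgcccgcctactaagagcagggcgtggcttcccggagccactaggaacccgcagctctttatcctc

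Genes outside the list were also ranked by how closely they followed each of the 10. The 3 genes of highest rho over 16 tumours were taken from 11336 protein-coding genes whose mean log2 CPM reached 1, as a description. They are the highest of many values. Functions are named for some of them only, and whether they share functions with the 10 genes was not tested. Hmox1 was most like Por, the cytochrome P450 reductase that supplies its electrons (rho = 0.88), then Slc40a1, the iron exporter ferroportin (0.86), and Kiss1r (0.81). Slc40a1 was also 2nd for Gclm (rho = 0.83), between Sbno2 and Adam8. Gclc was most like Copg1, G3bp2 and G6pdx (rho = 0.85, 0.85 and 0.84), the last encoding the NADPH-producing glucose-6-phosphate dehydrogenase. Slc7a11 was most like Slc11a2, an iron transporter (rho = 0.95), Ptgs2, the inducible cyclooxygenase (0.94), and Rnf149 (0.94). Txnrd1 had Senp3 and Mta2 before Srxn1 (rho = 0.91 and 0.89), and Srxn1 had Ppard, Dnaaf5 and Abcc4, all at 0.92. Gpx4 was most like Lamtor3, Zbtb8os and Immp1l (rho = 0.97, 0.97 and 0.96). Keap1 had Dpp4, Zswim9 and Nsun6 (rho = 0.86, 0.84 and 0.83), Nqo1 had Gtf3a (0.83), Med9 and Coq6, and Nfe2l2 had Atg4c (0.80), Cdr2 and Slc25a25.

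Each gene was also set against 11 cell-content scores and 2 library measures, which made 130 relations. Srxn1 was lower where adipocyte and fibroblast genes were higher, with r = -0.84 for the adipocyte score and r = -0.82 for the fibroblast score, each with a permutation p of 3.5e-04 and an adjusted p of 0.0228. These were the 2 of 130 relations called by Pearson r. By rho they were -0.71 (permutation adjusted p = 0.113) and -0.67 (permutation adjusted p = 0.152). Without the 2 tumours farthest from the median of Srxn1, r was -0.52 and -0.51. In 13 tumours r was -0.51 and -0.48, with 0 of 130 called. Within anti-PD-1 r was -0.44 for the adipocyte and -0.26 for the fibroblast score, and within IgG2a -0.89 and -0.98. The IgG2a values include replicates 3 and 7, which stood apart. The count of 2 became 11 without anti-PD-1 replicate 1, 5 without IgG2a replicate 4, 4 without anti-PD-1 replicate 6, and 0 without anti-PD-1 replicate 7 or without IgG2a replicate 3, 5 or 7. These counts were not set against all genes. Srxn1 also had r = -0.77 with the erythroid, -0.75 with the macrophage and -0.73 with the endothelial score, but -0.08 with the neutrophil score. Txnrd1 was alike, with r = -0.81 for the adipocyte and -0.73 for the fibroblast score (permutation adjusted p = 0.0629 for each). In 13 tumours these were -0.39 and -0.18.

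By rho the 1 relation called was Gpx4 with the fibroblast score (rho = 0.82, permutation p = 2.4e-04, adjusted p = 0.0312), for which r was 0.55 (permutation adjusted p = 0.138). In 13 tumours its rho was 0.80 and did not pass (permutation adjusted p = 0.132). Within anti-PD-1 r was 0.17 and within IgG2a 0.80. Gpx4 also had r = -0.71 with the number of transcripts detected (permutation adjusted p = 0.0795), and -0.24 without the 2 tumours farthest from the median of Gpx4. Hmox1, which macrophages and neutrophils both express, had r = -0.20 with the macrophage score (permutation adjusted p = 0.666) and 0.59 with the neutrophil score (permutation adjusted p = 0.0992). Slc7a11 had r = 0.55 with the neutrophil score (permutation adjusted p = 0.133) and 0.85 in 13 tumours (permutation adjusted p = 0.0533). All 10 macrophage markers and 6 of 8 neutrophil markers were tested, Mpo and Ngp being too low. The neutrophil score ran from 1.436 to 4.601 under anti-PD-1 and from -0.01 to 3.46 under IgG2a. The part of cell content in the values of the 10 genes was not tested.

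The pathway around the 10 genes was read from the same edgeR test in 10 lists, and 0 genes of any list passed at an adjusted p under 0.05. Among the KEAP1 ligase, NRF2 partners and relatives, 2 of 11 genes tested had higher and 9 lower estimates under anti-PD-1, with a median of -0.08 and 2 at an unadjusted p under 0.05, against 11.4% of all genes tested. Nfe2l1, a relative of NRF2 that drives proteasome genes, had a mean CPM of 232 ± 27.7 in anti-PD-1 tumours, against 305 ± 58.9 in IgG2a tumours (SD, 8 per group), with 0 of 8 anti-PD-1 tumours above the IgG2a median. Its log2 fold change was -0.39 ± 0.12 (SE, edgeR adjusted p = 0.434), and -0.23 in 13 tumours. The estimates were -0.20 ± 0.09 for Mafk, a small MAF partner, and -0.23 ± 0.12 for Bach1, the competing repressor. For Gsk3b, a kinase that marks NRF2 for destruction, the estimate was -0.25 ± 0.12. For each of these, 0 of 8 anti-PD-1 tumours lay above the IgG2a median. These genes and Nfe2l1 were named for the smallest unadjusted p of the list, and such counts were not set against all genes. In 13 tumours 5 of the 11 genes were at an unadjusted p under 0.05, against 15.8% of all genes tested, and 0 passed after adjustment.

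Of the thioredoxins and peroxiredoxins, 11 of 12 had higher estimates, with a median of 0.24 and 4 at an unadjusted p under 0.05, against 11.4% of all genes tested. Prdx1, an abundant cytosolic peroxiredoxin, had a mean CPM of 604 ± 258 (SD) in anti-PD-1 tumours, against 429 ± 65.1 in IgG2a tumours, with a log2 fold change of 0.49 ± 0.20 (SE). Prdx2 had 0.50 ± 0.22 and Prdx6 0.34 ± 0.13. For each of these 3 peroxiredoxins all 8 anti-PD-1 tumours lay above the IgG2a median, a count not set against all genes. Their highest value was in anti-PD-1 replicate 6. The exception was Txnip, the thioredoxin inhibitor, at -1.55 ± 0.63, whose estimate was 0.05 in 13 tumours and whose highest value came from IgG2a replicate 7. Without anti-PD-1 replicate 6 the estimates were 0.29 for Prdx1, 0.21 for Prdx2 and 0.24 for Prdx6, and without IgG2a replicate 7 that of Txnip was -0.26. In 13 tumours 12 of 12 estimates were higher, against 8712 of 16352 over all genes, with a median of 0.15 and 4 at an unadjusted p under 0.05, against 15.8%. There Prdx1 had 0.39, Prdx2 0.23 and Prdx6 0.23.

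For the genes of glutathione synthesis, recycling, conjugation and export, 7 of 21 estimates were higher and 14 lower, with a median of -0.42, but 16 were higher and 5 lower in 13 tumours, with a median of 0.20. All genes tested also turned, being mostly lower in 16 tumours (median -0.05) and mostly higher in 13 (median 0.02). Ggct, which releases 5-oxoproline from gamma-glutamyl peptides, had 0.48 ± 0.17 and Gstp1, a glutathione transferase, 0.47 ± 0.22, which was 0.25 without anti-PD-1 replicate 6. Mgst3 had -1.23 ± 0.52, which was -0.43 without IgG2a replicate 7, and Gstm5 had -1.98 ± 0.97, which was -0.97 without IgG2a replicate 3. In 13 tumours the estimates were 0.31 for Ggct, 0.16 for Gstp1, -0.11 for Mgst3 and 1.17 for Gstm5. The list of superoxide, peroxide and glutathione peroxidase enzymes turned in the same manner, with 3 of 8 higher and a median of -0.36 in 16 tumours, and 7 of 8 higher and a median of 0.25 in 13. Cat, encoding catalase, had -1.02 ± 0.40, which was -0.32 without IgG2a replicate 7, its highest tumour, and -0.13 in 13 tumours. The NADPH oxidase genes had 2 of 8 higher, with a median of -0.23, and 7 of 8 higher in 13 tumours, with a median of 0.28.

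Of detoxification and other NRF2 targets, 10 of 15 were higher, with a median of 0.09, led in abundance by Fth1, the ferritin heavy chain, with a mean CPM of 3326 ± 1479 (SD) in anti-PD-1 tumours, against 2335 ± 352 in IgG2a tumours, and a log2 fold change of 0.51 ± 0.21 (0.32 in 13 tumours). The NADPH supply genes had 3 of 7 higher and a median of -0.14 in 16 tumours, and 5 of 7 higher and a median of 0.07 in 13. Ferroptosis genes were divided 4 to 4, among them Slc3a2, the partner chain of Slc7a11, at 0.21 ± 0.10, and Ptgs2 at 0.87 ± 0.47. Without anti-PD-1 replicate 1 the estimate of Ptgs2 was 0.45, and in 13 tumours it was 0.49. Selenoprotein synthesis and supply was also divided 4 to 4, with Selenop, the plasma selenium carrier, at -1.80 ± 0.76 in 16 tumours, -0.04 without IgG2a replicate 7 and 0.39 in 13. Of the genes regulated by ATF4, which also drives Slc7a11, 9 of 12 were higher, with a median of 0.17, and 6 of 12 in 13 tumours. Atf4 itself had 0.38 ± 0.18, which was 0.22 without anti-PD-1 replicate 6 and 0.16 in 13 tumours. All of these had an edgeR adjusted p of 0.434 or more.

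Below the gene level, 15 transcripts of the 10 genes held on average at least 10% of their gene's TPM and belonged to genes with several transcripts in the tables. Shares were compared between groups by exact permutation (two-sided) for all 21827 transcripts of this kind, a test added after the values had been seen. None of the 15 passed after adjustment, against 0% of all, and 2 of 15, Keap1-205 and Nfe2l2-201, had an unadjusted exact p under 0.05, against 10.7% of all. The main Keap1 transcript in these estimates, Keap1-205, held a lowest, median and highest share of 44.3%, 59.5% and 67.3% under anti-PD-1, against 40.7%, 48.2% and 55.2% under IgG2a. In 7 of 8 anti-PD-1 tumours the share lay above the highest IgG2a tumour, with replicate 2 the exception. This separation was not counted over all 21827 transcripts. The mean share was 59.4 ± 7.38% in anti-PD-1 tumours, against 47.5 ± 5.15% in IgG2a tumours (SD, 8 per group, exact permutation p = 0.00326, adjusted p = 0.466), and in 13 tumours the means were 59.6% with anti-PD-1, against 47.8% with IgG2a. The mean TPM of Keap1-205 was 13.8 under anti-PD-1 and 13.6 under IgG2a, and that of Keap1-201 was 4.797 under anti-PD-1 and 7.381 under IgG2a.

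Srxn1-202, a transcript of 375 bases not classed as coding, held more than 10% of Srxn1 TPM in 1 of 8 anti-PD-1 tumours and in 4 of 8 IgG2a tumours. Its mean share was 4.71 ± 13.3% in anti-PD-1 tumours, against 17.2 ± 18.7% in IgG2a tumours (SD, exact permutation p = 0.231). A short transcript turns few reads into many TPM. On log2(TPM + 1) over all its transcripts the estimate for Srxn1 was -0.24, against 0.05 on counts. Gpx4-203, a retained-intron transcript of 280 bases, held 67.1 ± 6.13% of Gpx4 TPM in anti-PD-1 tumours, against 62.9 ± 5.03% in IgG2a tumours (SD, exact permutation p = 0.154). For Txnrd1, Gclc and Nqo1 the tables held 1 transcript each, so isoforms of these genes were not separated.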

How the data were processed

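Poly(A) RNA of 16 tumours, 8 anti-PD-1 and 8 IgG2a, was sequenced from non-directional libraries, per the labels' protocols, so reads of a gene and of its antisense RNA cannot be told apart. The deposited tables hold estimated counts per transcript, which need not be whole, together with the authors' TPM and other columns with transcript and effective lengths, per the file headers. GRCm38, edgeR and limma are named in the submitters' processing notes. The quantifier is not given in the sources used here. Replicates are separate animals, each tumour having an animal number of its own.

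Transcripts were matched to GENCODE vM21 (114200 of 115088), and 0.167 to 0.217% of reads fell on unmatched transcripts, not used further. The estimated counts of each gene were added up, rounded, filtered with filterByExpr (minimum count 10, minimum total 15), scaled by TMM and tested in edgeR 4.0.16 under R 4.3.3 with the robust quasi-likelihood test, with Benjamini-Hochberg adjustment over 16154 genes and a threshold of 0.05. Depth was 59036535 to 82591064 reads per tumour. Correlations used log2 CPM (prior count 2) and 100000 resamples (Python 3.11.15, numpy 2.4.6, scipy 1.17.1). The tests were checked on simulated data. Alternatives were DESeq2 1.42.0, limma-voom 3.58.1 with and without quality weights, other scalings and filters, a length offset, log2 TPM, the range of animal numbers and leaving out tumours.

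Named genes are the 10 members, of each pathway list up to 4 tested genes of smallest unadjusted p, the 3 genes most like each member, and transcripts with at least 10% of a member's TPM. The members and lists were chosen with earlier results of these data known. Not all of these are printed.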

Additional observations from a re-analysis of the deposited data

Results flagged for a closer look

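In 4 of 20 groups of values (10 genes in each of 2 groups of 8 tumours), 1 tumour lay so far from the others that its gap to the nearest, divided by the range of the group, passed Dixon's critical value of 0.526. Chance flags about 1 in 20 groups where values are normal and groups independent. Untransformed CPM of several genes in the same tumours need not meet this. All 4 were the highest of 8 anti-PD-1 tumours. Nqo1 stood at 10.1 CPM in anti-PD-1 replicate 1, the next tumour at 6.73. Slc7a11 stood at 48.5 CPM in the same tumour, the next at 23.0. Hmox1 stood at 890 CPM in anti-PD-1 replicate 4, the next at 454.9. Gpx4 stood at 604 CPM in anti-PD-1 replicate 6, the tumour with the fewest transcripts detected, and the next at 280.5.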

How the results depend on the processing

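No paired analysis was possible because the labels give each tumour its own animal number and no replicate number shared between groups. Over 26 alternatives none of the 260 fold changes of the 10 genes passed an adjusted p of 0.05 (smallest 0.171), 230 kept their direction and 30 changed it. Of all genes, DESeq2 called 4, against 0 in edgeR.

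On log2(TPM + 1) and log2(TPM + 0.1), the estimates that changed direction were -0.070 and -0.071 for Nfe2l2, -0.15 and -0.16 for Gclm, -0.0056 and -0.0057 for Txnrd1, and -0.24 and -0.24 for Srxn1. With the length offset they were -0.0084 for Gclm and -0.22 for Srxn1. With quality weights they were 0.060 for Nqo1, 0.10 for Gclc, -0.033 for Srxn1 and -0.0025 for Slc7a11. In 13 tumours they were -0.0034 for Nfe2l2, 0.12 for Nqo1, 0.024 for Gclc, -0.0043 for Txnrd1 and -0.12 for Srxn1. The cause was not tested.

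With 1 tumour left out, estimates ran between 0.0051 and 0.067 for Nfe2l2, -0.22 and -0.13 for Keap1, -0.060 and 0.058 for Gclc, -0.0056 and 0.18 for Gclm, 0.43 and 1.07 for Slc7a11, 0.0019 and 0.15 for Txnrd1, -0.049 and 0.12 for Srxn1, -0.034 and 0.51 for Hmox1, -0.22 and 0.0081 for Nqo1, and -0.067 and 0.42 for Gpx4.

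The 5 called pairs became 17 on log2(TPM + 1), 0 in anti-PD-1 alone, 8 in IgG2a alone, 3 in 13 tumours and 3 to 12 with 1 tumour left out. The 2 called relations with scores became 0 in anti-PD-1 alone, 1 in IgG2a alone, 0 in 13 tumours, 1 by Spearman's rho and 0 to 11 with 1 tumour left out. All 10 genes passed the count filter, and the intervals of their fold changes reflect 8 tumours a group and the spread between them.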
